A study of Saccharomyces cerevisiae with 24 samples.

Results

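The genes described here encode the main cytosolic chaperones of budding yeast: the HSP70 proteins (SSA1 to SSA4, SSB1 and SSB2), the HSP90 proteins (HSP82 and HSC82), the disaggregase HSP104 and the HSP110 protein SSE1. They were chosen by their systematic names and no measured value enters that choice, but the family was selected with earlier results of these data known, so the counts below are not independent support for any direction. Of the 10 genes, 6 had rows among the 5193 genes of the tables and all 6 passed the filter on low counts: SSA3 (YBL075C), SSA4 (YER103W), SSB1 (YDL229W), HSP82 (YPL240C), HSP104 (YLL026W) and SSE1 (YPL106C). SSA1, SSA2, SSB2 and HSC82 were not analysed here. Because these genes have close copies in the genome, reads from a copy can be counted under the listed gene. Such reads could come from SSB2 under SSB1, from HSC82 under HSP82, or from SSA1 and SSA2 under SSA3 and SSA4. The sources cannot be told apart. The estimated counts of SSA3, SSA4, SSB1, HSP82 and HSP104 were not whole numbers in 24 of 24 samples, and those of SSE1 in 21. The gene model of HSP82 in the tables, at 1881 bases, is shorter than the known coding region.

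HSP70 proteins bind exposed hydrophobic stretches of unfolded or newly made proteins in cycles of ATP hydrolysis, with J-domain proteins starting the hydrolysis and nucleotide exchange factors ending the cycle. HSP90 acts later on a narrower set of clients, and HSP104 threads aggregated proteins through its central pore so that HSP70 can refold them. In yeast, part of the family is induced through Hsf1 and Msn2/4 when cells meet heat or run short of glucose, while other members serve protein synthesis in growing cells.

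The study asked whether the speed at which an OT-2 liquid handling robot aspirates, mixes and dispenses a yeast culture alters its transcriptome. Wild-type W303 cells (strain W303-1B, given with the alleles can1, ade2, his3, leu2, trp1 and ura3) were grown in rich YPD medium without any drug, and poly(A) RNA was sequenced after pipetting at 50, 130, 210 or 290 µL/s. Each speed has 6 samples, from biological replicates 2 and 1 (B2 and B1, separate cultures of 1 clone) with technical replicates 3, 2 and 1 (T3, T2 and T1) of each, which gives 24 samples in all. With 2 cultures, p-values measure the spread between these samples, which may be technical. The labels give no time, order or batch for the technical replicate numbers.

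The estimated counts summed to between 11555761 and 15464428 per sample, and all 6 chaperones were well covered, with the lowest count of any sample at 870.3 for SSA3. The library 50 µL/s B1T3 had the highest value of all 24 for SSB1 (3639 TPM) and SSE1 (634 TPM). For SSA4 (171 TPM), HSP104 (1831 TPM), HSP82 (1734 TPM) and SSA3 (66.3 TPM) the highest value was in 290 µL/s B2T1. The alpha-specific genes MF(ALPHA)1, MF(ALPHA)2 and STE3 averaged 4292, 908 and 324 TPM over the 24 samples, whereas the a-specific genes STE2, STE6 and BAR1 averaged 5.55, 6.75 and 4.43 TPM, which goes against the MATa genotype given for the strain.

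TPM is a relative abundance that takes gene length into account, so levels can be set side by side between genes, with 2 limits. The values of SSB1 and HSP82 may include reads of SSB2 and HSC82, and those of SSA3 and SSA4 may include reads of SSA1 and SSA2. The gene model of HSP82 is also short, at 1881 bases. SSB1, the ribosome-associated HSP70 that receives nascent chains, was the most abundant at 2812 ± 337 TPM (mean ± SD, n = 24 throughout this paragraph). HSP82, the stress-inducible HSP90, averaged 1315 ± 180 TPM, and HSP104 averaged 1173 ± 319 TPM. SSE1, a nucleotide exchange factor for HSP70, averaged 532 ± 30.6 TPM. The stress-inducible HSP70 genes were lowest, with SSA4 at 108 ± 34.05 TPM and SSA3 at 50.3 ± 10.97 TPM. In this order SSB1 was above HSP82, HSP104 above SSE1, SSE1 above SSA4 and SSA4 above SSA3 in 24 of 24 samples. HSP82 and HSP104 were the neighbours that did not keep their order, with HSP82 the higher in 18 of 24 samples. Across samples, the highest value was 2.75 times the lowest for SSA4, 2.58 times for HSP104, 1.97 times for SSA3, 1.74 times for HSP82, 1.56 times for SSB1 and 1.31 times for SSE1.

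Between technical replicates 3 and 1, SSA4, HSP104, SSA3 and HSP82 fell and SSB1 rose, while SSE1 did not pass the test. A gene is called here when its false discovery rate (FDR, Benjamini-Hochberg over 5142 genes) in the edgeR quasi-likelihood test was below 0.01. Thus 5 of 6 chaperones were called, 4 lower and 1 higher in T3. This number stands against a large background: 49.3% of all genes were called in T3 against T1, 23.1% lower and 26.2% higher. The median log2 fold change was -0.60 over the 6 chaperones and 0.01 over all genes. In a bulk sample, a smaller share of cells expressing a gene and less of its RNA per cell cannot be told apart.

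SSA4, the HSP70 gene most strongly induced by stress, had a lowest, median and highest value of 62.0, 71.7 and 84.99 TPM in T3, against 119, 154 and 171 TPM in T1. Every T3 sample was thus below every T1 sample. For this gene and those below, the share of all genes without overlap was not counted, while 49.3% of all genes were called. The T2 samples, at 90.4, 103 and 123 TPM, overlapped T1 but not T3. SSA4 was 2.10-fold lower in T3 than in T1 (log2 fold change -1.07, SE 0.047, FDR = 1.49e-13), and ranked 2 of 5142 genes by p-value. The ratio of T3 to T1 within a speed and culture lay between 0.417 and 0.559 in the 8 sets.

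HSP104, whose product resolves aggregates after stress, had 709.8, 810 and 918 TPM (lowest, median, highest) in T3, against 1299, 1514 and 1831 TPM in T1. These groups did not overlap, and T2, at 1056, 1154 and 1344 TPM, overlapped T1 only. It was 1.94-fold lower in T3 than in T1 (log2 fold change -0.95, SE 0.053, FDR = 5.55e-12), lower in 8 of 8 sets.

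SSA3, the other stress-inducible SSA gene, had 33.7, 36.9 and 45.1 TPM in T3, against 52.2, 63.8 and 66.3 TPM in T1. The T2 samples, at 44.7, 50.1 and 59.9 TPM, overlapped both of the other groups. SSA3 was 1.68-fold lower in T3 than in T1 (log2 fold change -0.75, SE 0.045, FDR = 1.59e-11), lower in 8 of 8 sets.

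HSP82 had 998, 1141 and 1245 TPM in T3, against 1415, 1463 and 1734 TPM in T1, again without overlap. Its T2 samples, at 1133, 1315 and 1402 TPM, overlapped T3 but not T1. HSP82 was 1.37-fold lower in T3 than in T1 (log2 fold change -0.45, SE 0.045, FDR = 2.17e-08), the smallest of the decreases among the 4 genes.

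SSB1 moved the other way. It had 2936, 3123 and 3639 TPM in T3, against 2328, 2553 and 2653 TPM in T1, and these groups did not overlap. T2, at 2336, 2741 and 2874 TPM, overlapped T1 but not T3. SSB1 was 1.23-fold higher in T3 than in T1 (log2 fold change 0.30, SE 0.037, FDR = 5.99e-07), higher in 8 of 8 sets. Without the 50 µL/s B1T3 library the log2 fold change was 0.26.

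SSE1 had 510, 540 and 634 TPM in T3, against 509, 528 and 548 TPM in T1, and in T2 it had 484, 522 and 549.6 TPM. The 3 groups overlapped, although T2 reached below the other two, its lowest samples being of B1T2. Its log2 fold change was 0.02 (95% confidence interval -0.04 to 0.09, FDR = 0.568), and it was higher in T3 in 5 of 8 sets. Without the 50 µL/s B1T3 library it was -0.01. In culture B1 SSE1 averaged 577 ± 39.4 TPM in T3, 494 ± 15.1 TPM in T2 and 521 ± 9.96 TPM in T1 (SD, n = 4 each), and in culture B2 525 ± 10.7, 539 ± 9.4 and 535 ± 9.9 TPM. The joint test of the interaction between culture and technical replicate gave SSE1 an FDR of 0.0392. None of the 6 chaperones was called in that test in edgeR, DESeq2 or limma-voom, although 6.34% of all genes were in edgeR, and 1 of the 6 had an unadjusted p below 0.05.

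**Figure D1:**
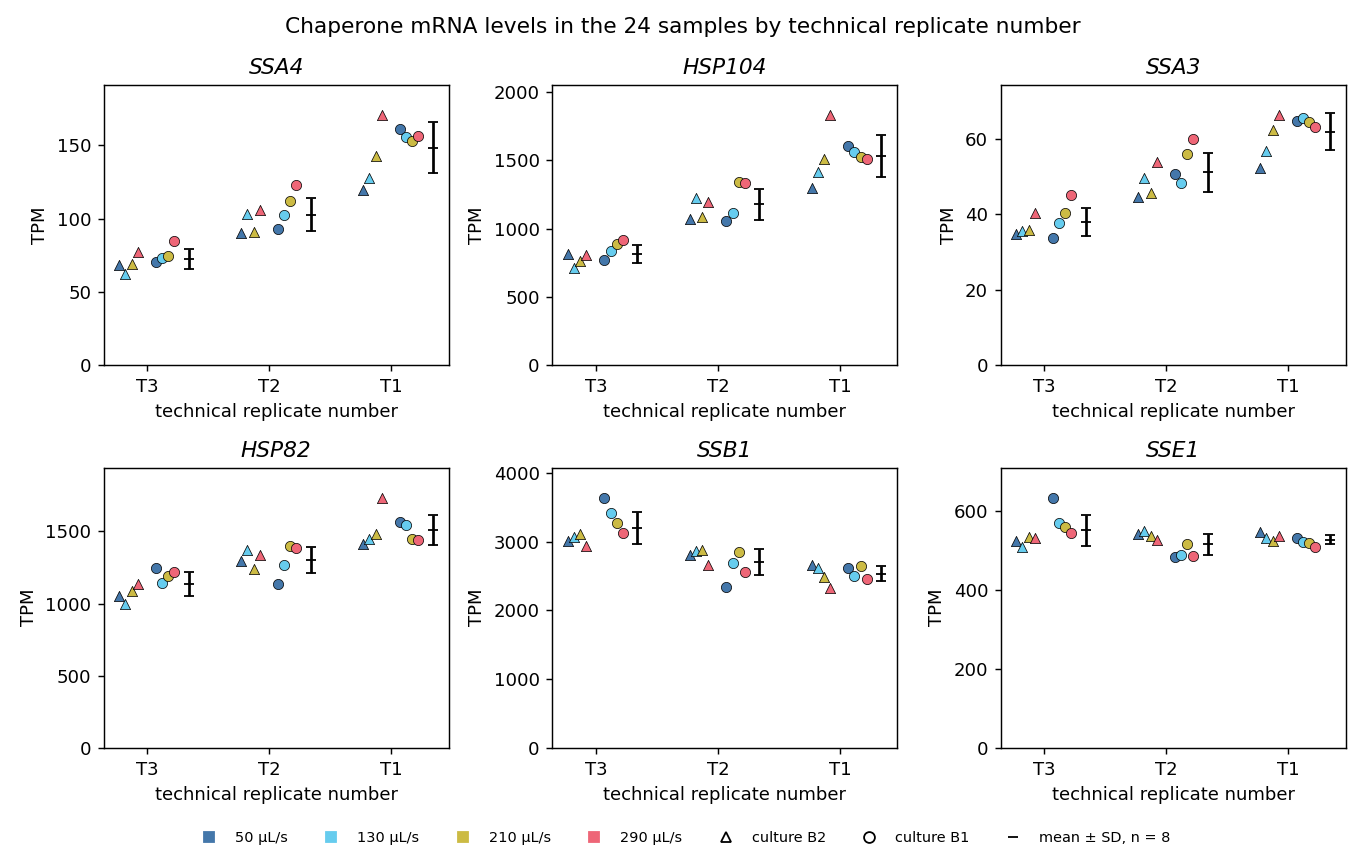
TPM (vertical axis, from 0) of each chaperone gene in the 24 samples, by technical replicate number. Points are samples, coloured by pipetting speed and shaped by culture, and bars give the mean ± SD of 8 samples. The T3 samples of SSA4, HSP104, SSA3 and HSP82 lie below all T1 samples, those of SSB1 lie above them, and those of SSE1 overlap. The share of all genes that separate in this way was not counted.

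Technical replicate 2 lay between the others for SSA4, HSP104, SSA3, HSP82 and SSB1 in mean TPM. In T2 against T1, 4 of 6 chaperones were called, all lower, whereas 4.3% of all genes were called, 2.49% lower and 1.81% higher. The log2 fold changes were -0.53 for SSA4 (FDR = 5.84e-07), -0.37 for HSP104 (FDR = 0.000106), -0.27 for SSA3 (FDR = 0.000492) and -0.21 for HSP82 (FDR = 0.00465). SSB1 was at 0.10 (FDR = 0.0919) and SSE1 at -0.03 (FDR = 0.660). HSP82 kept its call in 16 of 24 fits that left out 1 sample each, and lost it, with an FDR of at most 0.0137, without 290 µL/s B2T2 or B2T1, 210 µL/s B2T2 or B2T1, 130 µL/s B1T2 or B1T1, or 50 µL/s B1T2 or B1T1. In culture B1 alone only SSA4 was called.

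In T3 against T2, 5 of 6 chaperones were called, against 38.5% of all genes, 18.4% lower and 20.1% higher. HSP104 fell by 0.58 on the log2 scale (FDR = 6.18e-08), SSA4 by 0.55 (FDR = 2.88e-08), SSA3 by 0.47 (FDR = 8.81e-08) and HSP82 by 0.25 (FDR = 9.2e-05). SSB1 rose by 0.20 (FDR = 0.000152), and SSE1 was at 0.05 (FDR = 0.218). The comparisons between technical replicates share samples, so their values are given side by side and not as separate support. All members called in T3 against T1 were also called when each speed and culture was taken as a block.

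**Figure D2:**
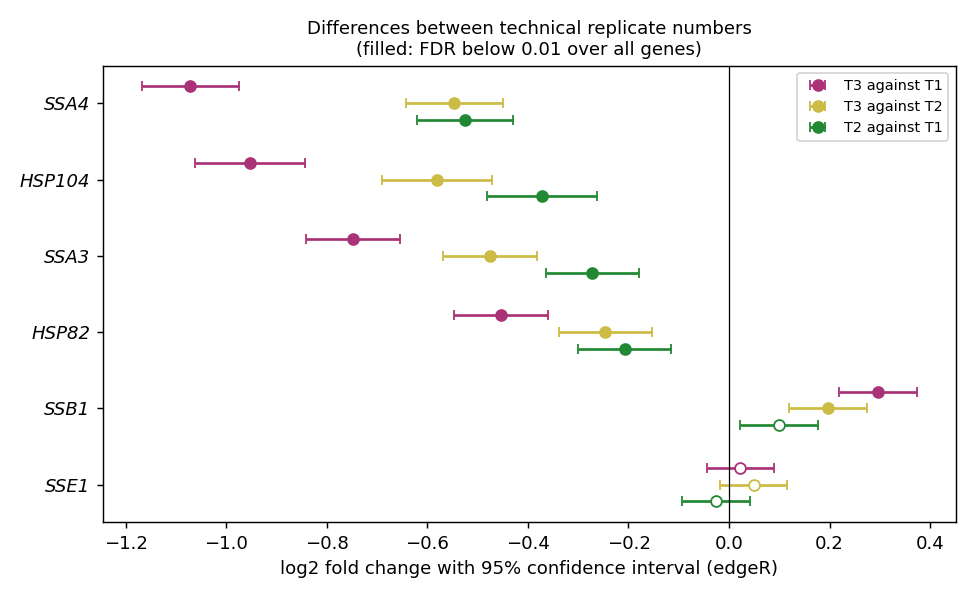
Log2 fold changes between technical replicate numbers (horizontal axis) with 95% confidence intervals from edgeR, filled where the FDR over all genes was below 0.01. SSA4 and HSP104 lie farthest to the left in T3 against T1, at -1.07 and -0.95, and SSB1 lies to the right at 0.30.

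The uneven changes altered the proportions of the chaperone messages within a sample. HSP104 stood at 0.717 ± 0.046 of HSP82 in T3, 0.903 ± 0.045 in T2 and 1.01 ± 0.046 in T1 (ratio of TPM, mean ± SD, n = 8 each here and below). HSP104 was above HSP82 in 0 of 8 T3 samples, 0 of 8 T2 samples and 6 of 8 T1 samples. SSB1 was 44.5 ± 5.2 times SSA4 in T3, 26.6 ± 3.5 times in T2 and 17.4 ± 2.8 times in T1. Among the stress-inducible HSP70 pair, SSA4 was 1.91 ± 0.0996 times SSA3 in T3, 2.01 ± 0.088 times in T2 and 2.39 ± 0.115 times in T1. The 6 genes together held 0.581 ± 0.035% of all TPM in T3, 0.585 ± 0.034% in T2 and 0.631 ± 0.020% in T1. No test was run on these ratios.

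**Figure D3:**
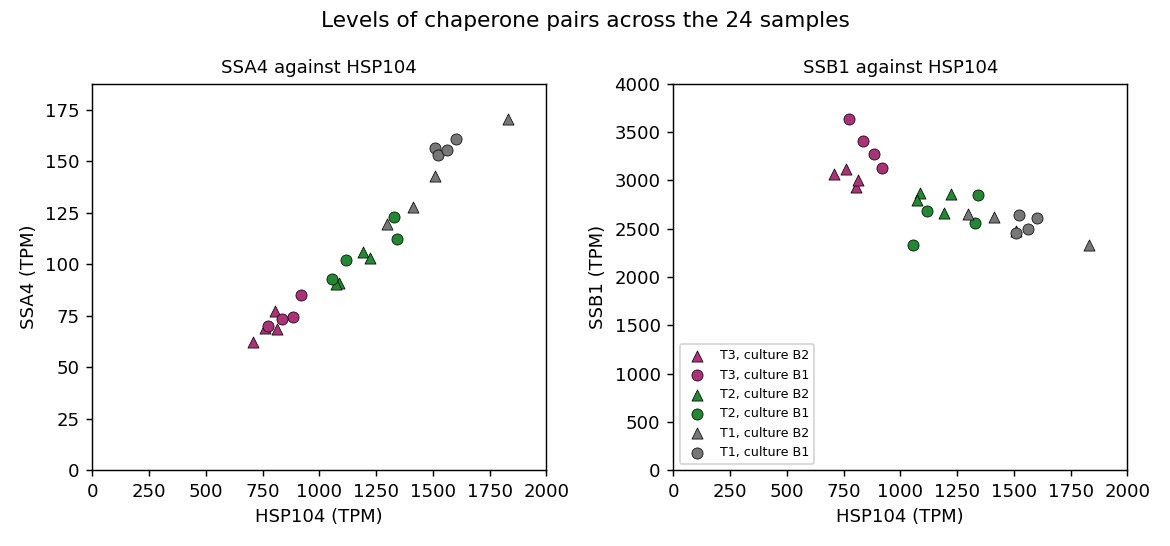
TPM of SSA4 (left) and SSB1 (right) against TPM of HSP104 in the 24 samples, coloured by technical replicate number and shaped by culture. SSA4 and HSP104 are both low in T3 and high in T1, while SSB1 is highest in T3.

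The other genes of the chaperone system did not move as one group. Of 15 HSP70 co-chaperone genes tested, 6 were higher, 1 was lower and 8 were not called in T3 against T1 (median log2 fold change 0.12). Of all genes, 26.2% were higher and 23.1% lower in that comparison. YDJ1, the major cytosolic J-domain protein, rose by 0.34 on the log2 scale (FDR = 4.94e-06), averaging 426 ± 63.98 TPM in T3 and 327 ± 15.1 TPM in T1. JJJ1, a J-domain protein of ribosome maturation, rose by 0.43. JJJ3, another J-domain protein, rose by 0.81 but from few reads, at 3.99 ± 2.02 TPM in T3 and 2.18 ± 0.46 TPM in T1, and without the 50 µL/s B1T3 library it was no longer called (0.58, FDR = 0.0202). Without that library 5 genes of the list were higher and 2 lower, FES1, a nucleotide exchange factor named after its values were seen, being the gene added (-0.09, FDR = 0.00666). SIS1, the J-domain partner of SSA proteins and HSP104 in dissolving aggregates, fell by 0.43 (FDR = 2.08e-08), with 564 ± 24.6 TPM in T3 and 737 ± 41.2 TPM in T1.

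Among 11 HSP90 co-chaperone genes, 1 was higher and 6 were lower (median -0.12), against 26.2% and 23.1% of all genes. The cyclophilin CPR6, the HSP70-HSP90 adaptor STI1 and the kinase-specific CDC37 fell by 0.36, 0.35 and 0.30 on the log2 scale. The phosphatase PPT1, which acts on HSP90, was the exception and rose by 0.73 (FDR = 4.94e-09), averaging 52.3 ± 6.7 TPM in T3 and 30.4 ± 3.3 TPM in T1. These lists were drawn up with earlier results known, and nothing particular to them is claimed beyond the counts.

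The genes that handle aggregates with HSP104 were largely lower: 3 of 4 fell and none rose, against 23.1% and 26.2% of all genes. HSP26, a small heat shock protein that coats aggregates, fell by 1.93 on the log2 scale (FDR = 1.49e-13), with 283 ± 73.5 TPM in T3 and 1032 ± 163 TPM in T1. HSP42, the other small heat shock protein, fell by 0.53 and the sorting factor BTN2 by 0.32, while CUR1 was at 0.00 (FDR = 0.983). Of 8 mitochondrial chaperone genes, 1 was higher and 2 were lower, against the same 26.2% and 23.1% of all genes. HSP78, the mitochondrial relative of HSP104, fell by 0.87 (FDR = 2.07e-11), MDJ1 fell by 0.13 and MGE1 rose by 0.15.

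The cytosolic chaperonin, a folding chamber for actin and tubulin, went the other way. Of 13 genes of the chaperonin and its helper prefoldin, 8 rose and none fell, against 26.2% and 23.1% of all genes. All genes called were chaperonin subunits. No prefoldin gene was called, the lowest FDR among them being 0.0149 for GIM4. CCT3, CCT2 and CCT4 rose by 0.21, 0.21 and 0.20 on the log2 scale. The transcripts of the stress regulators were not called, with log2 fold changes of -0.04 for HSF1 (FDR = 0.252), 0.08 for MSN2 (FDR = 0.0175) and -0.06 for MSN4 (FDR = 0.151).

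**Figure D4:**
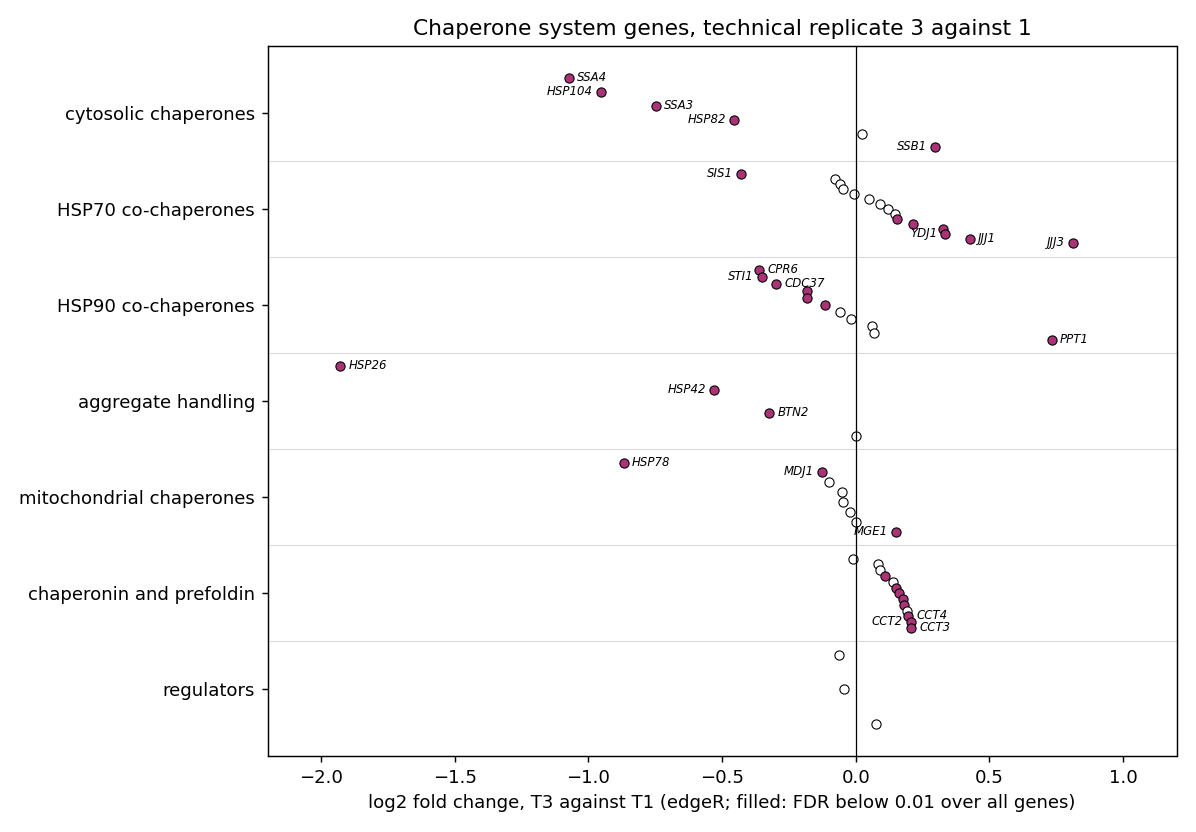
Log2 fold change of T3 against T1 (horizontal axis) for each gene of the chaperone system, grouped by list (rows) and filled where the FDR over all genes was below 0.01. HSP26 at -1.93 lies farthest left, the chaperonin and prefoldin genes lie between -0.01 and 0.21, and JJJ3 at 0.81 lies farthest right.

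Over the 24 samples, the gene outside the family whose log2 CPM (counts scaled to library size) were most like those of HSP104 was HSP78 (Pearson correlation coefficient, PCC = 0.992). For SSA3 it was HSP26 (PCC = 0.988), for SSA4 RTC3 (PCC = 0.980) and for HSP82 STI1 (PCC = 0.967). SSB1 was most like RPL5, a protein of the large ribosomal subunit (PCC = 0.971). SSE1 had no close match, MRPL4 of the mitochondrial ribosome reaching a PCC of 0.748. The samples behind these values share technical replicate numbers and cultures, so the coefficients are descriptions.

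In the comparison the study was designed for, speed was tested with the culture as covariate and no chaperone was called at 290 µL/s against 50 µL/s. The edgeR test called 0 of 6 and 0.0389% of all genes (0.0194% in each direction), DESeq2 and limma-voom also called 0 of 6, and none of the 6 had an unadjusted p below 0.05. Mean levels at 50, 130, 210 and 290 µL/s were 100, 104, 107 and 120 TPM for SSA4 (SD 34.9, 34.5, 35.2 and 37.8, n = 6 each), and 46.8, 48.9, 50.8 and 54.8 TPM for SSA3 (SD 11.7, 11.3, 11.9 and 10.3). For SSB1 they were 2841, 2856, 2872 and 2677 TPM (SD 449, 339, 293 and 302.8). In each case the spread within a speed, which holds all technical replicate numbers, exceeded the difference between speeds.

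Where samples of the same culture and technical replicate number were compared, with the 6 combinations as blocks, SSA4 and SSA3 were called higher at 290 than at 50 µL/s. The block was used because samples of the same culture and number deviated together. SSA4 rose by 0.25 on the log2 scale (SE 0.053, FDR = 0.00389) and SSA3 by 0.23 (SE 0.050, FDR = 0.00451), so 2 of 6 were called, both higher, against 6.5% of all genes (3.01% higher). With technical replicate only as a term the same 2 were called, against 3.93% of all genes (1.77% higher and 2.16% lower). HSP104 was at 0.18 (95% confidence interval 0.05 to 0.30, FDR = 0.0448) and HSP82 at 0.08 (FDR = 0.227). SSB1 was at -0.09 (FDR = 0.0861) and SSE1 at -0.07 (FDR = 0.109).

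The pairs behind these values were few. SSA4 had 77.2 TPM at 290 µL/s and 68.5 at 50 µL/s in B2T3, 106 and 90.4 in B2T2, 171 and 119 in B2T1, 84.99 and 70.1 in B1T3, 123 and 93.0 in B1T2, and 156 and 161 in B1T1. It was thus higher at 290 µL/s in 5 of 6 pairs, the exception being B1T1, and the largest ratio of CPM, 1.42, was in B2T1. SSA3 was also higher in 5 of 6 pairs, with ratios between 0.941 and 1.33. HSP104 and HSP82 were each higher in 4 of 6 pairs, SSE1 in 2 and SSB1 in 1.

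When 1 sample at a time was left out of the blocked fit, SSA3 was called in 17 of 24 fits and SSA4 in 18 of 24. Neither was called without 290 µL/s B2T1, B1T3 or B1T2 or without 50 µL/s B2T2 or B2T1, where the FDR reached 0.0159 for SSA3 and 0.0155 for SSA4. SSA3 alone was called without 50 µL/s B1T2, and SSA4 alone without 290 µL/s B2T2 or 50 µL/s B1T3. Without 290 µL/s B1T1, HSP104 was called as well (FDR = 0.00801). The mean fragment length, taken from the RSEM length estimates, had medians of 182.6, 185.0, 184.7 and 186.3 bases at 50, 130, 210 and 290 µL/s. The samples at 50 µL/s (178.9 to 187.0) overlapped those at 290 µL/s (185.7 to 190.3) only through 50 µL/s B1T2. The next longest at 50 µL/s was B1T1, at 184.1 bases. Within culture and technical replicate number, fragments were longer at 290 than at 50 µL/s in every pair but B1T2. With this length as a covariate in the blocked fit, SSA4 was at 0.21 (FDR = 0.0767) and SSA3 at 0.17 (FDR = 0.115), so that 0 of 6 were called. Whether fragment length has a part in the difference was not tested beyond this fit. In the same blocked comparison, without the covariate, HSP26 (0.60, FDR = 0.000251), HSP78 (0.24, FDR = 0.0090) and the J-domain gene CAJ1 (0.13, FDR = 0.0081) were higher and CUR1 (-0.23, FDR = 0.0072) was lower. Thus 1 of 15 HSP70 co-chaperone and 1 of 8 mitochondrial chaperone genes were higher. Of 4 aggregate-handling genes, 1 was higher and 1 lower, and no gene of the other chaperone lists was called. Of all genes, 3.01% were higher and 3.48% lower. For these list genes, the fits with the covariate or with 1 sample left out were not examined.

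**Figure D5:**
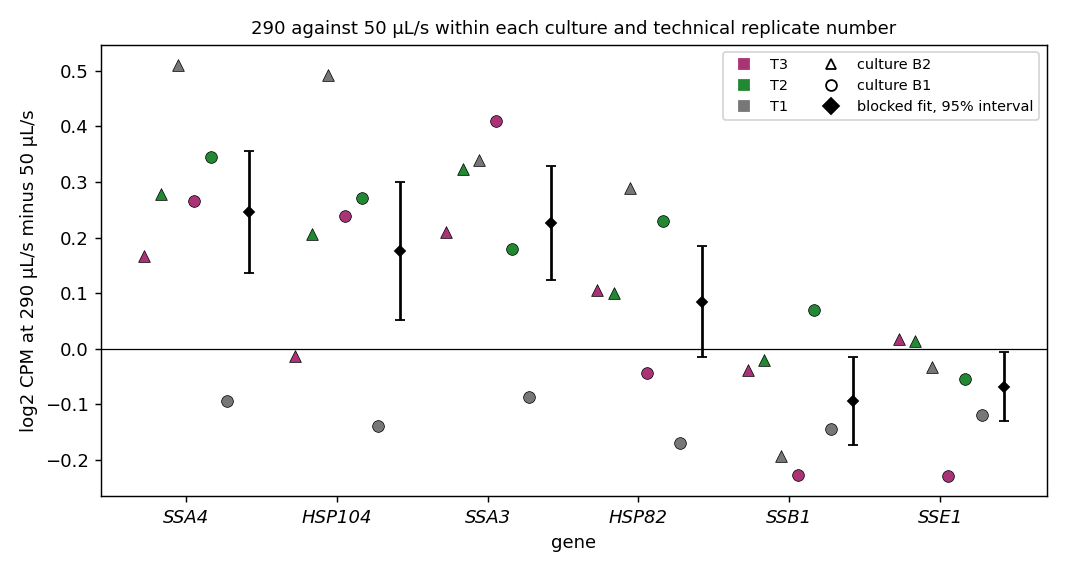
Difference in log2 CPM between 290 and 50 µL/s (vertical axis) for each chaperone within each culture and technical replicate number, with the blocked estimate and its 95% confidence interval as diamonds. For SSA4 and SSA3 5 of 6 pairs lie above 0, and the B1T1 pair lies below it.

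At 210 and 130 µL/s against 50 µL/s, 0 of 6 chaperones were called in edgeR, DESeq2 and limma-voom (0% of all genes in edgeR), and none had an unadjusted p below 0.05. In the blocked fit, which called 0 of 6 at both speeds (all genes: 0.0583% for 210 µL/s, all of them lower, and 0% for 130 µL/s), log2 fold changes at 210 µL/s ran between -0.05 and 0.10, with 95% confidence bounds no wider than -0.11 and 0.21, and at 130 µL/s between -0.05 and 0.06, with bounds no wider than -0.11 and 0.17. The joint test of the interaction between speed and technical replicate called 0 of 6 (0% of all genes) with each tool, and none had an unadjusted p below 0.05. It does not show that the speeds act alike across technical replicates.

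Between the cultures, no chaperone was called in biological replicate 2 against 1. SSA4 averaged 102 ± 33.1 TPM in B2 and 113 ± 35.6 TPM in B1 (SD, n = 12 each), and HSP104 1143 ± 341 TPM in B2 and 1204 ± 309 TPM in B1. The log2 fold changes ran between -0.16 for SSA4 and 0.00 for SSE1. With the technical replicate number as a term, the FDR was 0.0266 for SSA4 and 0.0473 for SSA3, still above the threshold, while 0.37% of all genes were called (0.194% lower). Without that term edgeR called 0% of all genes, none of the 6 had an unadjusted p below 0.05, and DESeq2 and limma-voom also called 0 of 6.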

How the data were processed

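RNA-seq was read for 24 samples of wild-type W303 yeast, with 4 pipetting speeds, 2 cultures and 3 technical replicates. The authors trimmed 36-nt paired reads with fastp 0.23.2, aligned them to the W303 genome with STAR 2.7.10a and estimated gene abundance with RSEM, counting by strand. The deposited expected counts are RSEM estimates and 23.8% of them are not whole; they were rounded for the tests. The deposited TPM values are relative to all genes of a sample. A table of all samples held the same counts and was not used. Gene names were matched by systematic name to RefSeq (R64), which named 5151 of 5193 genes, and no coordinates were taken from it.

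Genes with an average count above 1 were kept (5142), and tested with edgeR 4.0.16 (TMM, quasi-likelihood, R 4.3.3) over all 24 samples. The model held speed and biological replicate, and technical replicate where that was compared. p-values were adjusted by Benjamini-Hochberg over all genes and called at 0.01. DESeq2 1.42.0 and limma 3.58.1 (voom), other filters and scalings, replicate blocks, a fragment length covariate and leaving out each sample were tried. The scripts were tested on simulated data. Pairing by culture and number was checked between samples of different speeds, the cultures being those of the labels. All 36 pairs of the same culture and number had a correlation of deviations of at least 0.148 (median 0.522, highest 0.779). Pairs sharing only the technical replicate number overlapped them, with a median of 0.298 (-0.257 to 0.610). Pairs of different numbers had a median of -0.233 (-0.636 to 0.425).

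The members and lists were chosen with earlier results of these data known. The genes named are the members, up to 3 highest and 3 lowest called genes per list in T3 against T1, the regulators, genes called for speed and the gene most alike each member. Figures were drawn with matplotlib 3.10.9.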

Additional observations from a re-analysis of the deposited data

Results flagged for a closer look

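Of 78 groups of 4 to 8 samples of the members, 2 held a sample far from the others by Dixon's test, and chance flags about 1 in 20 groups. HSP82 was 1734 TPM in 290 µL/s B2T1, high among the 8 samples of technical replicate 1, the others lying between 1415 and 1564 TPM. SSE1 was 516 TPM in 210 µL/s B1T2, high among the 4 samples of that culture and number, the others lying between 484 and 489 TPM.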

How the results depend on the processing

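The 5 of 6 calls in T3 against T1 and in T3 against T2 were made under all alternatives run on both cultures together, and leaving out each sample kept each of those calls. The replicate block changed no call but that of 290 against 50 µL/s, where 2 chaperones were called with the block or with technical replicate as a term and 0 without. In the blocked fit, leaving out 1 sample gave between 0 and 3 called, and the fragment length covariate gave 0. In T2 against T1, culture B1 alone gave 1. In T3 against T2, HSP82 in culture B1 alone (FDR = 0.0249) and SSB1 in culture B2 alone (FDR = 0.0129) were not called. In the interaction of culture with technical replicate, total counts without TMM and an FDR of 0.05 gave 1 each, SSE1. In culture B2 alone SSE1 reversed, to -0.058 in T3 against T1 and -0.039 in T3 against T2. The cause of these was not tested. Without TMM the median of all genes shifted by 0.05 at most. Close copies were not summed: SSA1, SSA2, SSB2 and HSC82 were not analysed here, and SSA3 was not added to SSA4. No block could be fitted for biological replicate 2 against 1, since culture is part of the block. Depth limited none of the 6.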
